A study of Homo sapiens with 15 samples.

Results

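NF-kB is a family of transcription factors whose subunits pair in different combinations. In a resting cell the pairs are held in the cytoplasm by IkB proteins. A receptor signal, such as one from tumour necrosis factor or interleukin-1, activates the IKK kinases, which mark IkB for destruction and free the subunits to enter the nucleus. Among the genes they switch on are their own inhibitors, so the pathway carries a built-in brake, and in lung fibroblasts it is known for driving cytokines, prostaglandin synthesis and adhesion molecules. The 10 genes described here were chosen by symbol as components and feedback genes of this pathway: the 5 subunits NFKB1, NFKB2, REL, RELA and RELB, and the 5 inhibitors or targets NFKBIA, NFKBIE, NFKBIZ, TNFAIP3 and BIRC3. All 10 were listed among the 16382 genes of the MRC5 table and the 16076 genes of the H196 table, and all 10 passed the filter on low counts in each fit.

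The study grew MRC5, a human lung fibroblast line, alone (MRC5_Mo), with the neuroendocrine small cell lung cancer (SCLC) line H69 (MRC5_CoH69) or with the non-neuroendocrine SCLC line H196 (MRC5_CoH196), and H196 alone (H196_Mo) or with MRC5 (H196_Co). Each of the 5 groups had 3 libraries of polyA-selected RNA, prepared as parallel replicates after 7 days of culture, so p-values measure the spread between parallel cultures of 1 line. The partner cells sat on the porous membrane of an insert above the sequenced cells. Monocultured fibroblasts and SCLC cells were kept in different media, and the medium used for the co-cultures was not given in the sources used here, so partner and medium cannot be told apart. Libraries held 18476890 to 19170560 counts for MRC5 and 16073597 to 17358349 for H196. All 10 fibroblast markers checked (among them COL1A1, COL1A2 and PDGFRA) were at 1 FPKM or more in every MRC5 library, and only 1 was in every H196 library. Neuroendocrine markers summed to 0.28 to 0.54 FPKM in MRC5_CoH196, 0.45 to 0.72 FPKM in MRC5_Mo and 30.9 to 32.8 FPKM in H196_Co, over 3 markers in MRC5 and 6 in H196. The 4 markers of non-neuroendocrine SCLC cells, the partner's class, summed to 1019 to 1043 FPKM in MRC5_CoH196 and 828 to 853 FPKM in MRC5_Mo, with CD44 at 768 against 595 on average, and to 296 to 316 FPKM in H196_Co and 265 to 269 FPKM in H196_Mo. Leukocyte and endothelial markers each summed to under 1 FPKM in every MRC5 library. The summed fibroblast markers were lower in MRC5_CoH196 (2556 to 2705 FPKM) than in MRC5_Mo (5164 to 5752 FPKM). The collagen genes carried that difference, with mean levels of 785 against 2628 FPKM for COL1A1, 1191 against 1974 for COL1A2 and 54.0 against 260 for COL3A1. PDGFRA (48.9 against 42.6), PDGFRB (85.5 against 60.7) and LUM (94.4 against 86.1) had higher means in MRC5_CoH196, and FAP was at 31.95 against 32.2. DCN (198 against 202), THY1 (131 against 154) and TWIST2 (13.3 against 17.3) had lower means there. The part of these markers in the members' changes was not tested. Between libraries of a group, chi-square per degree of freedom was taken over the 12504 to 12809 genes with enough counts in the pair. It is near 1 for counting noise alone, and was 1.89 to 4.34 in MRC5 and 2.37 to 10.8 in H196. H196_Mo replicate 1 stood apart from replicates 2 and 3 (7.39 and 6.77, against 2.37 between those), and calls that turned on it are given with and without it. All H196_Co libraries also differed from one another, at 10.8 (replicates 1 and 2), 6.34 (1 and 3) and 5.99 (2 and 3).

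NFKB1 (chromosome 4, 102500818 to 102617302) and NFKB2 (chromosome 10, 102391710 to 102402529) encode the precursors p105 and p100, from which the DNA-binding subunits p50 and p52 are made. RELA (chromosome 11, 65653601 to 65663078), RELB (chromosome 19, 45001449 to 45038194) and REL (chromosome 2, 60881521 to 60940021) encode the subunits that carry a transactivation domain. NFKBIA (chromosome 14, 35401513 to 35404749) and NFKBIE (chromosome 6, 44258166 to 44265551) encode the cytoplasmic inhibitors IkB-alpha and IkB-epsilon. NFKBIZ (chromosome 3, 101827990 to 101861022) encodes IkB-zeta, a nuclear member of the IkB family that acts on transcription together with p50. TNFAIP3 (chromosome 6, 137866317 to 137883312) encodes A20, a ubiquitin-editing enzyme that shuts the signal off upstream of IKK, and BIRC3 (chromosome 11, 102301421 to 102339403) encodes cIAP2, a ubiquitin ligase that protects cells from death signals. These gene spans are those of the deposited tables (GRCh38.p13).

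The promoters of several members hold kappaB sequences, the sites that NF-kB pairs bind. RefSeq entries (GRCh38.p14) gave 13 promoter windows for 8 of the 10 members, each taken as the 250 bases before an annotated transcription start. The kappaB consensus was searched on both strands and was found for 7 of these 8 members. Of all 35116 windows of this length 5.21% held it, and of all 27305 genes 6.28% had at least 1 such window. A looser form, GGGNNNNNCC, which every consensus match also fits, was in at least 1 window of each of the 8 members. It was in 54.4% of all windows, and 57.8% of all genes had at least 1 such window. The 5 windows below are shown because their genes had different outcomes in the fibroblasts: NFKBIZ, TNFAIP3 and BIRC3 were higher with H196, NFKBIA did not pass the test and NFKB1 was lower. NFKBIZ and NFKB1 each had another window, not printed, which held a match for NFKBIZ and none for NFKB1. Capitals mark bases of a kappaB consensus match, read on the gene's strand, so a match on the opposite strand appears as GGAAATTCCC rather than GGGAATTTCC.

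NFKBIZ, chr3:101827740-101827989, plus strand: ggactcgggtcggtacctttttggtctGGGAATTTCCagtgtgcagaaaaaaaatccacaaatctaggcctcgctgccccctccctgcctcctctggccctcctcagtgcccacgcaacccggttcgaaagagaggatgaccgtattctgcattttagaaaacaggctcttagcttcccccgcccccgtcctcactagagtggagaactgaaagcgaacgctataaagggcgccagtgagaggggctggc
TNFAIP3, chr6:137867009-137867258, plus strand: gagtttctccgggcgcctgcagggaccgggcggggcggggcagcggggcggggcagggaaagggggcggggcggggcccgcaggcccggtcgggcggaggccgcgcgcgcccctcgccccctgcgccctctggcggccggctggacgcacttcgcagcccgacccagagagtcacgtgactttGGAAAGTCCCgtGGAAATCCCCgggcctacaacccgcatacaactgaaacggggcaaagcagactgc
BIRC3, chr11:102317234-102317483, plus strand: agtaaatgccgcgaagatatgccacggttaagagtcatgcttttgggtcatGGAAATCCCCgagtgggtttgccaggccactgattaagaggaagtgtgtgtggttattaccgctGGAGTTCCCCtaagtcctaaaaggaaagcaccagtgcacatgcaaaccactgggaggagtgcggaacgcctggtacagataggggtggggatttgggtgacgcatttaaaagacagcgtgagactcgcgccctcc
NFKBIA, chr14:35404750-35404999, minus strand: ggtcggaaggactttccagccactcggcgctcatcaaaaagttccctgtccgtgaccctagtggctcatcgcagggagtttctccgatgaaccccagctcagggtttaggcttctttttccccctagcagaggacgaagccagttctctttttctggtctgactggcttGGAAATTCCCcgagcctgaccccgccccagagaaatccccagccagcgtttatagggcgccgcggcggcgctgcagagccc
NFKB1, chr4:102501109-102501358, plus strand: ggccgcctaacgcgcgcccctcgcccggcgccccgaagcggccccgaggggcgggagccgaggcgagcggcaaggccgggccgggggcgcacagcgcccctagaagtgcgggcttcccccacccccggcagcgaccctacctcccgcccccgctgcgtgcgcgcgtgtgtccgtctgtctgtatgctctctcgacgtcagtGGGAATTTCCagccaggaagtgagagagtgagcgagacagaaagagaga

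The same letters, GGGAATTTCC, stood in the printed NFKBIZ and NFKB1 windows and, on the opposite strand, in the NFKBIA window. TNFAIP3 held a pair of matches close together, at 67 to 58 and 55 to 46 bases before the start, and BIRC3 held matches at 199 to 190 and 135 to 126 bases before it. A match is a description of these letters and does not show that a site was bound. The windows of RELA held no consensus match. The other genes with matches, not printed, were NFKB2 and REL.

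Co-culture with H196 moved the NF-kB genes of the fibroblasts in both directions. NFKBIZ, TNFAIP3, BIRC3, RELA and REL were higher in MRC5_CoH196 than in MRC5_Mo, NFKB1, NFKBIE and RELB were lower, and NFKB2 and NFKBIA did not pass the test. Tests were made with edgeR's quasi-likelihood fit on the counts, a gene with a Benjamini-Hochberg adjusted p under 0.05 was called changed, and a changed gene with an absolute log2 fold change above 0.58 was called a DEG. Thus 5 members were higher and 3 lower, beside 37.2% of all 12819 genes tested called higher and 37.1% called lower. As DEGs, 4 members were higher and 3 lower, beside 17.2% and 14.7% of all genes. The median log2 fold change of the 10 members was 0.18, against -0.0030 over all genes, and their median absolute log2 fold change was 0.70, against 0.39. In bulk RNA, fewer cells of a type and less RNA per cell cannot be told apart.

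**Figure D1:**
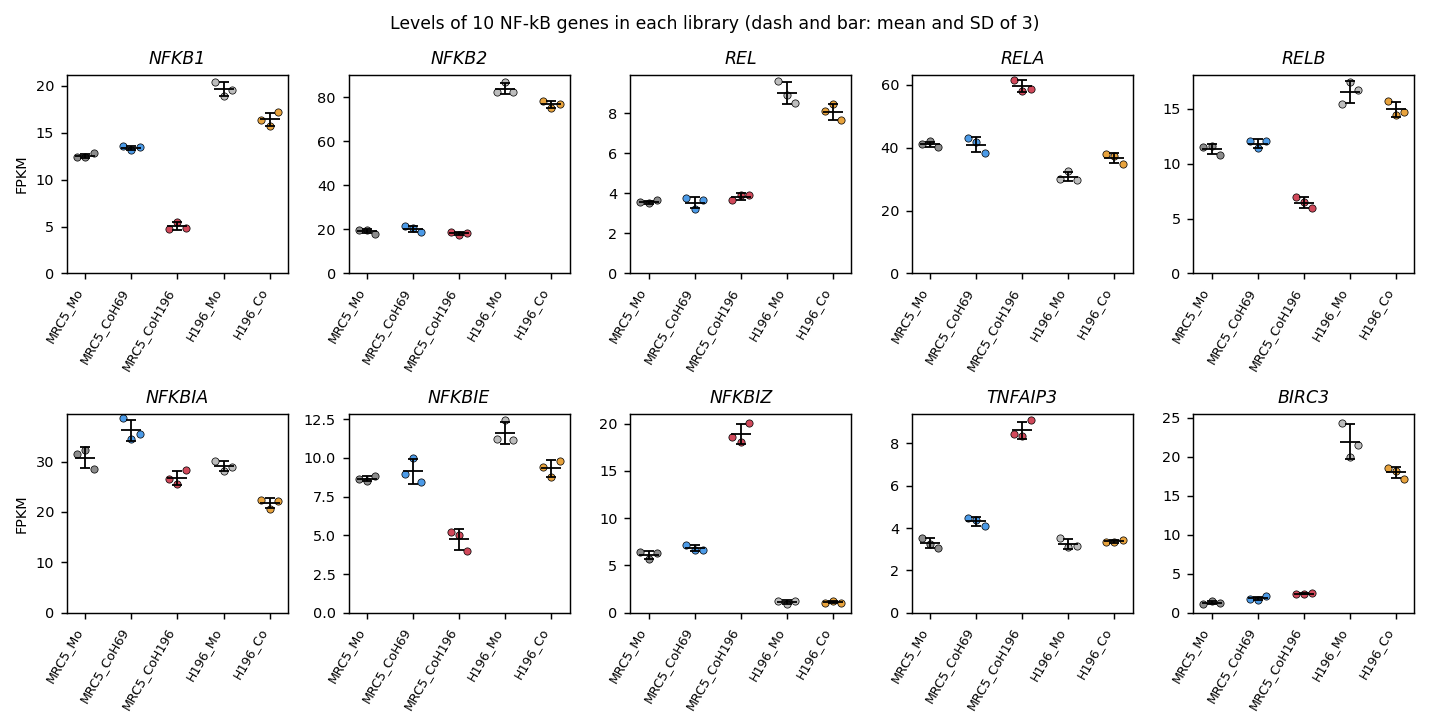
FPKM (vertical axes, each from 0) of the 10 genes in each of the 15 libraries; points are libraries, and the dash and bar are the mean and SD of 3. In MRC5_CoH196, RELA, NFKBIZ and TNFAIP3 sit above both other fibroblast groups and NFKB1, RELB and NFKBIE sit below them, while NFKB2, REL and BIRC3 are highest in the H196 groups.

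Of the feedback genes, NFKBIZ was at 18.6, 18.03 and 20.1 FPKM in the 3 MRC5_CoH196 libraries, 7.16, 6.65 and 6.59 in MRC5_CoH69 and 6.39, 5.65 and 6.28 in MRC5_Mo. Every library with H196 lay far above the other 6. The log2 fold change over MRC5_Mo was 1.81 ± 0.06 (SE, adjusted p = 2.27e-18, edgeR), or 3.50-fold in mean CPM (counts scaled to the size of the library), and 2.95% of the genes tested had an absolute log2 fold change as large or larger. TNFAIP3 was at 8.44, 8.34 and 9.09 FPKM in MRC5_CoH196, 4.47, 4.38 and 4.08 in MRC5_CoH69 and 3.52, 3.26 and 3.07 in MRC5_Mo. The 3 groups did not overlap, with MRC5_CoH69 between the others. Its log2 fold change with H196 was 1.57 ± 0.07 (adjusted p = 3.23e-16, edgeR). BIRC3, a gene of low level in these fibroblasts, was at 2.45, 2.34 and 2.51 FPKM in MRC5_CoH196, 1.80, 1.61 and 2.09 in MRC5_CoH69 and 1.06, 1.45 and 1.31 in MRC5_Mo. Its groups again stood in the same order without overlap, and the log2 fold change with H196 was 1.15 ± 0.11 (adjusted p = 1.15e-09, edgeR). BIRC3 was at 17.2 to 24.4 FPKM in the H196 libraries. NFKB2, also far higher in H196 than in MRC5, did not pass the test in MRC5_CoH196, and the neuroendocrine marker CHGB, at 18.97 FPKM on average in H196_Mo, averaged 0.097 FPKM in MRC5_CoH196 and 0.11 FPKM in MRC5_Mo. Whether RNA of H196 cells added to the BIRC3 values in MRC5_CoH196 was not tested.

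The classical inhibitor NFKBIA did not rise with NFKBIZ, TNFAIP3 and BIRC3, and the inhibitor NFKBIE fell. NFKBIA was at 26.5, 25.5 and 28.3 FPKM in MRC5_CoH196, 38.6, 34.5 and 35.5 in MRC5_CoH69 and 31.6, 32.4 and 28.4 in MRC5_Mo. On the FPKM scale the H196 group was the lowest and MRC5_CoH69 the highest, without overlap. The count test gave a log2 fold change with H196 over MRC5_Mo of -0.03 ± 0.06 (adjusted p = 0.675, edgeR), whereas limma on log2(FPKM + 1) gave -0.19 (adjusted p = 0.0112). The FPKM scale put the median of all genes at -0.13 in this comparison, with 3299 genes called higher and 6178 lower, where the count test called 4765 higher and 4757 lower. NFKBIE was at 5.24, 5.02 and 3.96 FPKM in MRC5_CoH196 and at 8.42 or more in the other 6 fibroblast libraries. All 3 libraries with H196 lay below those 6, and the log2 fold change over MRC5_Mo was -0.70 ± 0.09 (adjusted p = 3.19e-07, edgeR).

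Among the subunits, RELA and NFKB1 moved in opposite directions. RELA was at 61.7, 58.2 and 58.8 FPKM in MRC5_CoH196, 43.0, 41.8 and 38.3 in MRC5_CoH69 and 41.0, 42.0 and 40.3 in MRC5_Mo. The H196 group was higher in every library and the other groups overlapped, and the log2 fold change over MRC5_Mo was 0.71 ± 0.05 (adjusted p = 2.26e-12, edgeR). NFKB1 was at 4.74, 5.49 and 4.86 FPKM in MRC5_CoH196, 13.6, 13.2 and 13.5 in MRC5_CoH69 and 12.4, 12.4 and 12.8 in MRC5_Mo. Its H196 group lay below every other library, and the log2 fold change was -1.16 ± 0.06 (adjusted p = 7.36e-15, edgeR), which is 2.24-fold lower in mean CPM. RELB, the partner of p52 in the non-canonical pathway, was at 6.93, 6.51 and 5.92 FPKM in MRC5_CoH196 and 10.8 to 12.1 in the other 6 libraries. It fell by 0.64 ± 0.07 on the log2 scale (adjusted p = 2.73e-08, edgeR).

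NFKB2 and REL moved least among the subunits. NFKB2 was at 17.4 to 18.8 FPKM in MRC5_CoH196 and 18.1 to 19.8 in MRC5_Mo, ranges that overlapped, and its log2 fold change was 0.08 ± 0.06 (adjusted p = 0.222, edgeR), turning to -0.07 on log2(FPKM + 1). REL was at 3.65, 3.94 and 3.93 FPKM in MRC5_CoH196 against 3.55, 3.50 and 3.65 in MRC5_Mo, with the lowest of the first group level with the highest of the second. The count test called it higher (0.28 ± 0.06, adjusted p = 0.000141, edgeR), but on log2(FPKM + 1) the change was 0.08 (adjusted p = 0.243). REL counts were not whole numbers, so part of its reads was shared out between genes by the authors' estimation, and its values are less certain than those of the other members.

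The shares of RELA, NFKB1 and RELB in the summed level of the 5 subunit genes set MRC5_CoH196 apart from the other fibroblast groups. The sum was 93.1 ± 2.35 FPKM in MRC5_CoH196, 90.1 ± 3.69 in MRC5_CoH69 and 87.7 ± 1.81 in MRC5_Mo (SD, n = 3). RELA made up 64.0% ± 0.39 of it in MRC5_CoH196, 45.5% ± 1.09 in MRC5_CoH69 and 46.9% ± 0.28 in MRC5_Mo. NFKB1 made up 5.41% ± 0.54, 14.9% ± 0.63 and 14.3% ± 0.56 in the same order, and RELB 6.93% ± 0.43, 13.1% ± 0.66 and 12.9% ± 0.25. The shares of NFKB2 (19.5% ± 0.54, 22.5% ± 0.51 and 21.8% ± 0.62) and of REL (3.94% to 4.13% on average) were closer together. Expressed as a ratio, there were 11.9 ± 1.22 RELA FPKM per NFKB1 FPKM in MRC5_CoH196, 3.06 ± 0.19 in MRC5_CoH69 and 3.28 ± 0.12 in MRC5_Mo, and the IkB-alpha gene NFKBIA stood at 0.45 ± 0.03, 0.88 ± 0.05 and 0.75 ± 0.04 FPKM per RELA FPKM. With 3 libraries a group an exact permutation test of a single value cannot go below p = 0.1, so these shares and ratios carry no test. They are transcript levels and say nothing of the amount of protein or of subunits in the nucleus.

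**Figure D2:**
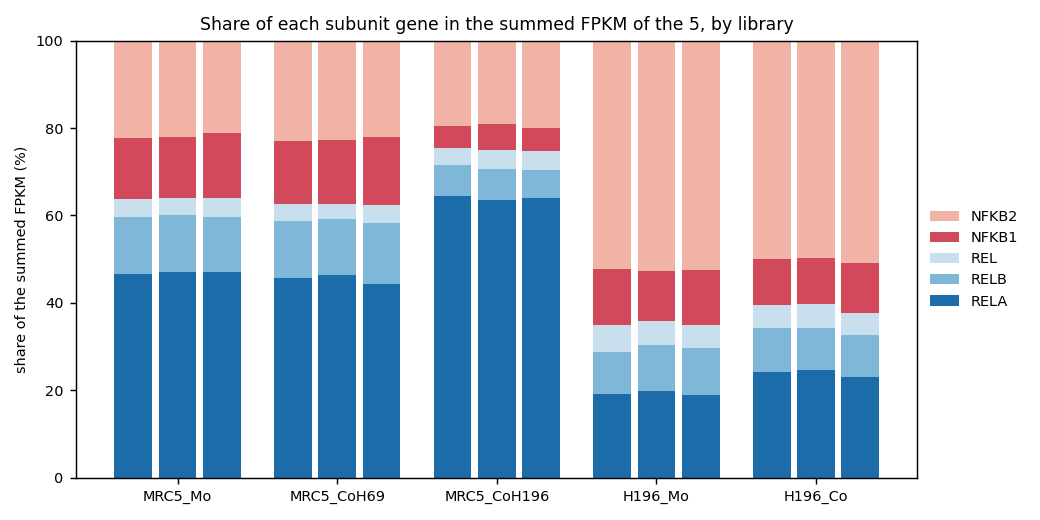
Share (%, vertical axis) of RELA, RELB, REL, NFKB1 and NFKB2 in their summed FPKM, one stacked bar per library in the 5 groups. RELA takes 63.6% to 64.4% in the MRC5_CoH196 libraries and 44.3% to 47.1% in the other fibroblast libraries, and NFKB2 takes 49.8% to 52.7% in the H196 libraries.

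Co-culture with H69 moved fewer of these genes, and none past the DEG limit. NFKBIA, TNFAIP3 and BIRC3 were higher in MRC5_CoH69 than in MRC5_Mo, so 3 members were called higher and 0 lower, beside 3.78% and 2.93% of all genes tested, and 0 were DEGs, beside 0.421% of all genes as higher and 0.133% as lower DEGs. Unadjusted, 5 members were higher and 0 lower in this comparison, and DESeq2 also called 3 higher and 0 lower. The log2 fold changes were 0.51 ± 0.12 for BIRC3 (adjusted p = 0.00770, edgeR), 0.40 ± 0.08 for TNFAIP3 (adjusted p = 0.00146) and 0.24 ± 0.06 for NFKBIA (adjusted p = 0.0169). The calls of NFKBIA and BIRC3 were each lost when certain single libraries were left out. NFKBIA missed the threshold without MRC5_CoH69 replicate 1 (adjusted p = 0.135, edgeR) and without MRC5_Mo replicate 3 (adjusted p = 0.152), and BIRC3 missed it without MRC5_CoH69 replicate 3 (adjusted p = 0.0527). The other 7 members had log2 fold changes of 0.01 to 0.17, the highest being NFKBIZ at 0.17 ± 0.07 (adjusted p = 0.170, edgeR).

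The direct comparison of the partners, MRC5_CoH196 against MRC5_CoH69, called 9 members. It found 5 higher and 4 lower, beside 35.7% and 36.6% of all genes tested, and 4 higher and 3 lower DEGs, beside 15.2% and 13.1%. The log2 differences were 1.64 ± 0.06 for NFKBIZ, 1.17 ± 0.07 for TNFAIP3, 0.70 ± 0.05 for RELA, 0.64 ± 0.10 for BIRC3 and 0.28 ± 0.06 for REL. On the lower side they were -1.27 ± 0.06 for NFKB1, -0.79 ± 0.09 for NFKBIE, -0.71 ± 0.07 for RELB and -0.27 ± 0.06 for NFKBIA. Adjusted p in this edgeR comparison ran from 1.39e-17 for NFKBIZ to 0.000435 for NFKBIA, and NFKB2 was the member that did not pass (-0.01 ± 0.06, adjusted p = 0.824). On log2(FPKM + 1) REL missed the threshold (0.09, adjusted p = 0.199) and NFKB2 was called lower (-0.15, adjusted p = 0.0295). Both comparisons with MRC5_Mo used the same control libraries, whereas this one did not use them.

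**Figure D3:**
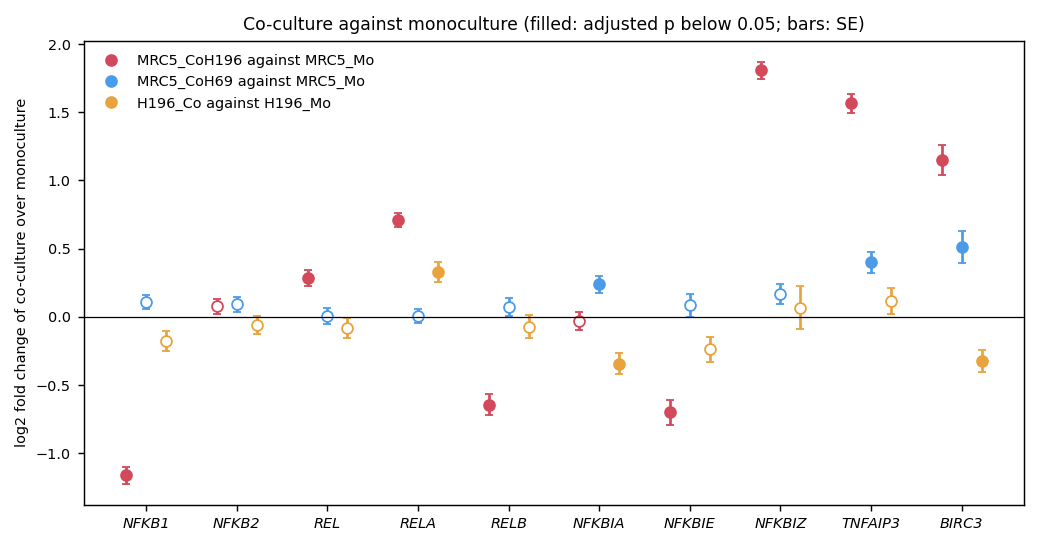
Log2 fold change of each gene (vertical axis) in MRC5_CoH196 and MRC5_CoH69 over MRC5_Mo and in H196_Co over H196_Mo; bars are standard errors and filled points have an adjusted p under 0.05 (edgeR). The fibroblasts with H196 run from -1.16 (NFKB1) to 1.81 (NFKBIZ), while the other comparisons stay between -0.34 and 0.51.

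In the cancer cells the changes were small. RELA was higher in H196_Co than in H196_Mo and NFKBIA and BIRC3 were lower, that is 1 member higher and 2 lower, beside 12.0% and 7.78% of all 12806 genes tested. None was a DEG (unadjusted, 1 was higher and 4 lower), beside 3.26% of genes as higher and 0.601% as lower DEGs. RELA was at 37.9, 37.3 and 34.9 FPKM in H196_Co and 30.2, 32.5 and 29.7 in H196_Mo. Its co-culture libraries all lay above the monocultures, and the increase was 0.33 ± 0.07 on the log2 scale (adjusted p = 0.00373, edgeR). NFKBIA was at 22.5, 20.6 and 22.1 FPKM in H196_Co and 30.2, 28.2 and 28.9 in H196_Mo, again without overlap but in the other direction (-0.34 ± 0.08, adjusted p = 0.00472, edgeR). BIRC3 was at 18.6, 18.2 and 17.2 FPKM in H196_Co and 24.4, 19.9 and 21.5 in H196_Mo. The first H196_Mo library was the highest of these, the groups did not overlap, and the change of -0.32 ± 0.08 (adjusted p = 0.00872, edgeR) became -0.23 (adjusted p = 0.0558) without that library. NFKBIZ stayed near 1 FPKM in all 6 H196 libraries (0.95 to 1.24), with 60 to 77 counts each, and its log2 fold change was 0.07 ± 0.16. TNFAIP3 was at 3.32 to 3.45 FPKM in H196_Co and 3.09 to 3.53 in H196_Mo (0.12 ± 0.10, adjusted p = 0.405, edgeR).

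The RELA share of the subunit sum was 23.97% ± 0.87 in H196_Co and 19.3% ± 0.43 in H196_Mo, and the RELA to NFKB1 ratio was 2.24 ± 0.18 and 1.57 ± 0.13 (SD, n = 3). NFKBIA per RELA was 0.59 ± 0.04 in H196_Co and 0.95 ± 0.07 in H196_Mo. In both lines, then, co-culture with the other went with more RELA per NFKB1 and less NFKBIA per RELA in FPKM. The difference in log2 fold change between the fibroblasts (MRC5_CoH196 over MRC5_Mo) and the cancer cells (H196_Co over H196_Mo) was tested in 1 fit of all 15 libraries. It passed for 9 members, 6 with a higher and 3 with a lower change in MRC5, beside 24.1% and 27.1% of all 13585 genes tested. The difference was 1.71 ± 0.16 for NFKBIZ, 1.45 ± 0.14 for BIRC3 and 1.42 ± 0.11 for TNFAIP3, and -1.01 ± 0.09 for NFKB1. RELA, called higher in both lines, still differed by 0.36 ± 0.08 (adjusted p = 0.000802, edgeR).

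Grown alone, the lines differed in which NF-kB genes they held at a high level. They were kept in different media and their values came as separate sets, so line, medium and set cannot be told apart here. NFKB2 was at 83.9 ± 2.59 FPKM in H196_Mo and 19.2 ± 0.91 in MRC5_Mo, and BIRC3 at 21.9 ± 2.24 and 1.27 ± 0.20. REL was likewise higher in H196_Mo (9.02 ± 0.55 against 3.57 ± 0.08), whereas NFKBIZ was higher in MRC5_Mo (6.11 ± 0.40 against 1.14 ± 0.16) and so was RELA (41.1 ± 0.83 against 30.8 ± 1.52). The log2 differences of MRC5_Mo over H196_Mo on the count scale were -3.75 ± 0.10 for BIRC3, -1.70 ± 0.06 for NFKB2, -0.90 ± 0.06 for REL, 2.87 ± 0.10 for NFKBIZ and 0.85 ± 0.06 for RELA. In this comparison 4 members were called higher and 4 lower in MRC5_Mo, beside 42.6% and 44.0% of all genes tested. The remaining calls were 0.52 ± 0.07 for NFKBIA, 0.47 ± 0.08 for TNFAIP3 and -0.21 ± 0.06 for NFKB1, and the first pair were lost on log2(FPKM + 1) (0.08 and 0.01). RELB (-0.11 ± 0.07) and NFKBIE (0.02 ± 0.09) did not pass, but on log2(FPKM + 1) both were called lower in MRC5_Mo (-0.51 and -0.38), a scale on which the median of all genes was -0.34. NFKB2 made up 52.5% ± 0.28 of the subunit sum in H196_Mo, where RELA made up 19.3%.

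Across the 5 groups the order of the FPKM levels therefore differed from gene to gene. RELA, NFKBIZ and TNFAIP3 were highest in MRC5_CoH196, with no overlap with the next group. NFKB1, NFKB2, REL, RELB, NFKBIE and BIRC3 were highest in H196_Mo, and NFKBIA in MRC5_CoH69. NFKB1, RELB and NFKBIE were lowest in MRC5_CoH196, each apart from the next group up, MRC5_Mo. Neighbours that overlapped included MRC5_Mo and MRC5_CoH69 for NFKB2, REL, RELA, RELB and NFKBIE, and H196_Mo and H196_Co for RELB and NFKBIZ. On scaled CPM NFKBIE was instead highest in MRC5_CoH69 (20.8), then MRC5_Mo (19.6) and H196_Mo (19.3), with overlap between neighbours.

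The rest of the pathway was described through lists of genes by role. Over all genes tested in MRC5_CoH196 against MRC5_Mo, 17.2% were higher and 14.7% lower DEGs, the shares to set beside each list. Of the other IkB proteins and feedback inhibitors, 3 of 13 tested were higher and 2 lower DEGs in this comparison. TNIP1, which works with A20, was at 82.3 ± 2.22 FPKM against 50.3 ± 0.49 (log2 fold change 0.88), NFKBIL1 rose by 0.97 and PDLIM2, an adaptor linked to the breakdown of nuclear RELA, by 0.75. The lower ones were NFKBIB (-0.86), which encodes IkB-beta, and NLRC5 (-0.93). Of the IKK complex and its kinases, 1 of 16 was a higher and 3 were lower DEGs. TAB2, an adaptor of the TAK1 kinase, rose by 0.72. IKBKE was at 3.82 ± 0.11 FPKM in MRC5_CoH196 and 9.93 ± 0.47 in MRC5_Mo (-1.19), and CHUK, the IKK-alpha gene (-0.75), and RIPK1 (-0.61) were lower too.

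Of the adaptors and ubiquitin ligases, 5 of 20 were higher and 2 lower DEGs, beside 17.2% and 14.7% of all genes tested. TICAM1, TRAF6 and TRAF5 rose by 0.84, 0.72 and 0.68. TRAF1, itself an NF-kB target, had a log2 fold change of -1.17, and MYD88, the adaptor shared by the interleukin-1 and Toll-like receptors, was at 8.90 ± 0.55 FPKM in MRC5_CoH196 against 21.1 ± 0.65 in MRC5_Mo (-1.06). The receptors were split, with 3 of 12 higher DEGs (IL1RAP at 1.31, CD40 at 1.28 and TNFRSF1B at 0.68) and 3 lower ones, among them IL1R1 (-0.72) and IL17RC (-0.70). Of the ligands, 3 passed the count filter, all as higher DEGs. TNFSF12 was the one with a mean of at least 1 CPM (0.59). TNF itself was on this list but was below that mean or not tested, and its value is not reported here. The medians of these lists were between -0.05 and 0.07 apart from the ligands (1.36), against -0.0030 over all genes.

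Known targets of the pathway were mixed as well. Among survival and stress targets 3 of 14 were higher and 3 lower DEGs, beside 17.2% and 14.7% of all genes tested. GADD45B, a stress sensor, was at 120 ± 10.5 FPKM in MRC5_CoH196 against 40.0 ± 3.36 in MRC5_Mo (1.76), and IER3 (1.55) and BIRC2 (0.59) were higher, whereas TRAF1, PLAU (-1.10) and FAS (-0.81) were lower. Among inflammatory targets 8 of 17 (47.1%) were higher and 4 (23.5%) lower DEGs. PTGS2, the inducible cyclooxygenase, was at 5.32 ± 0.38 FPKM in MRC5_CoH196 and 0.52 ± 0.24 in MRC5_Mo (3.53), and CXCL8 (2.41) also rose. VCAM1, a leukocyte adhesion molecule, was at 0.78 ± 0.17 FPKM against 4.52 ± 0.75 (-2.37), PTX3 fell by 2.04 and CCL2, a monocyte attractant, by 0.65. The Hallmark set of TNF signalling through NF-kB, which the tables annotate and which holds 9 of the 10 members, had 62 higher and 25 lower DEGs of 175 tested, with a median log2 fold change of 0.34. These were 35.4% and 14.3% of the set, beside 17.2% and 14.7% of all genes tested. Without the members the set had 59 and 22 of 166 and a median of 0.38. Its leading genes VEGFA (3.84), SLC2A3 (3.67) and BHLHE40 (3.11), an angiogenic factor, a glucose transporter and a clock-related repressor, are also known to respond to hypoxia, and HBEGF (-1.23) was lower beside PTX3.

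**Figure D4:**
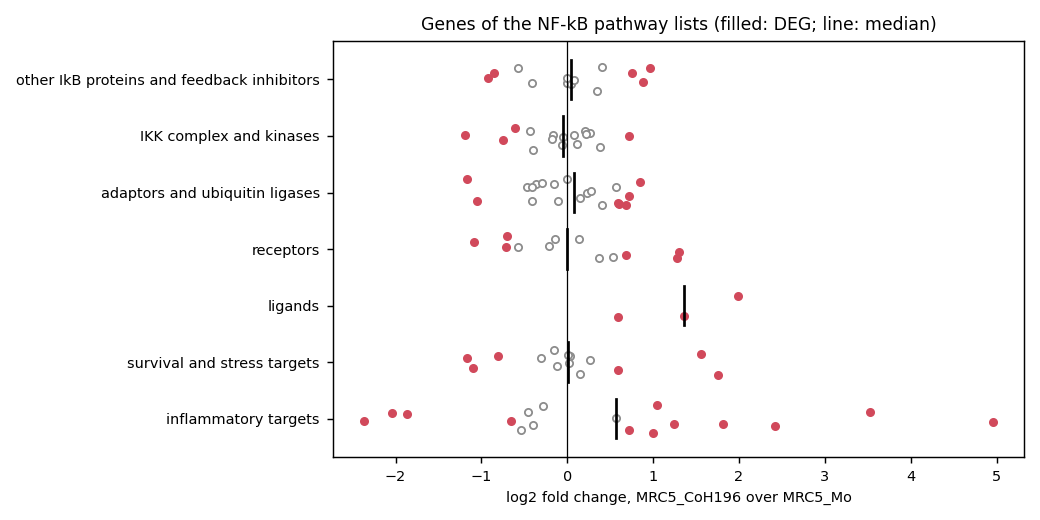
Log2 fold change in MRC5_CoH196 over MRC5_Mo (horizontal axis) of each tested gene in 7 pathway lists; filled points are DEGs and the black line is the list's median. DEGs lie on both sides of 0 in 6 lists, and the 3 ligands tested all lie above it.

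With H69 the same lists held few DEGs, as did all genes tested, of which 0.421% were higher and 0.133% lower DEGs. Those of inhibitors, kinases, adaptors, receptors, ligands and survival targets had 0. Of the 17 inflammatory targets tested, 2 were higher (CXCL8 at 0.69 and CCL2 at 0.68) and 1 was lower (PTX3 at -0.59). CCL2 thus passed as higher with H69 and as lower with H196, and the direct comparison of the partners gave -1.33 (adjusted p = 3.81e-15, edgeR). In H196_Co the DEGs included TNIP1 (0.74), at 75.8 ± 2.87 FPKM against 47.8 ± 0.73 in H196_Mo, IL1RAP (0.81), CEBPB (0.59) and, with a mean under 1 CPM, CCL2 (-1.93), named after its value was seen. Of the Hallmark set 22 of 162 (13.6%) were higher and 6 (3.70%) lower DEGs, beside 3.26% and 0.601% of all genes tested in H196. The higher ones included SLC2A3 (1.63) and VEGFA (1.12), and ABCA1 (-0.83) and SLC2A6 (-0.71) were lower.

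For the 8 members changed in MRC5_CoH196 against MRC5_Mo, the gene with the most similar level across the 9 fibroblast libraries was sought by Pearson's r. NFKBIZ was closest to the glucose transporter SLC2A1 (r = 0.999), RELA to FBLN2 (0.998), TNFAIP3 to RIC1 (0.997) and BIRC3 to SLC30A4 (0.986). NFKB1 was closest to TIMM23 (0.998), RELB to ATF6 (0.996), NFKBIE to MFSD5 (0.994) and REL to USP24 (0.980). These values describe 9 libraries in 3 groups, and most of each gene's variation lay between MRC5_CoH196 and the rest, so 2069 genes reached r above 0.95 with NFKBIZ and 1512 with NFKB1. For REL and BIRC3 the number was 33 and 39.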

How the data were processed

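Polyadenylated RNA was sequenced on a BGISEQ platform. Per the paper and the submitters' notes, the authors filtered reads with SOAPnuke, aligned them to GRCh38.p13 with HISAT and to reference genes with Bowtie2 2.3.4.3, and RSEM 1.3.1 is named in the notes. The authors deposited expected counts (estimated reads per gene, not normalized) and FPKM values for each library; 30 further per-library columns (TPM and normalized counts) were not used, nor were the authors' own fold changes, p-values and q-values.

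Here expected counts were rounded and fitted per cell line with edgeR 4.0.16 (TMM scaling, quasi-likelihood test), and for comparisons between lines over 15 libraries and the 15320 genes in both tables. P-values were adjusted over all genes tested. DESeq2 1.42.0, limma 3.58.1, other scalings, filters and left-out libraries were alternatives. The procedure was tested on simulated data. Replicate numbers did not pair the samples. The members and lists were chosen with earlier results of these data known. All 10 members were named, and per list the 3 DEGs rising and the 3 falling most with a mean of at least 1 CPM (Hallmark set, at least 10 CPM). Some genes that this rule names are not reported here, though the list counts include them. Member counts ran from 60 (NFKBIZ in H196_Mo) to 4239 (NFKB2 in H196_Mo) per library, which sets their counting error.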

Additional observations from a re-analysis of the deposited data

Results flagged for a closer look

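The change with co-culture differed between the lines for 9 members, by the edgeR test of the difference itself (MRC5_CoH196 over MRC5_Mo, minus H196_Co over H196_Mo, log2). It was higher in the fibroblasts for NFKBIZ (1.71, adjusted p = 1.33e-09), BIRC3 (1.45, 3.43e-09), TNFAIP3 (1.42, 6.47e-11), RELA (0.36, 0.000802), REL (0.34, 0.00231) and NFKBIA (0.29, 0.0184). It was lower for NFKB1 (-1.01, 2.82e-10), RELB (-0.60, 5.03e-05) and NFKBIE (-0.49, 0.00299). Of all 13585 genes tested, 24.1% were called higher and 27.1% lower in this difference. NFKB2 had a difference of 0.11 ± 0.08 (adjusted p = 0.272). For NFKBIA the log2 fold changes were -0.03 in MRC5 and -0.34 in H196, and its difference missed the threshold without MRC5_Mo replicate 3 (0.24, adjusted p = 0.0606). That of REL missed it by limma on log2(FPKM + 0.1) (0.26, adjusted p = 0.0620). The value for NFKBIE was -0.32 (adjusted p = 0.0481) without MRC5_CoH196 replicate 3. The gap test for an outlying value needs at least 4 samples a group and was not run with 3.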

How the results depend on the processing

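Of 125 recomputed member counts 117 stayed within 1.5 times the value given. Counting only DEGs lowered the count from 3 to 0 for MRC5_CoH69 against MRC5_Mo and for H196_Co against H196_Mo, from 8 to 5 for MRC5_Mo against H196_Mo, and from 9 to 5 for the difference between the lines. Limma on FPKM, with either pseudocount, gave 1 in place of 3 members with H69 (TNFAIP3) and 5 in place of 3 in H196, where NFKB1 (-0.24) and NFKBIE (-0.29 on log2(FPKM + 1)) were added. BIRC3 in MRC5_CoH196 was 0.60 on log2(FPKM + 1), against 1.15 by counts. In 1 fit of all 15 libraries the count with H69 was 2 and that in H196 was 4. The replicate numbers did not pair the samples (correlations of -0.21 to 0.10), and with a replicate block the counts were 8 for MRC5_CoH196 and 3 for MRC5_CoH69 against MRC5_Mo, 9 between the partners, 3 in H196, 8 between the monocultures and 9 for the difference between the lines, with no member's call changed.

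The direction turned for NFKBIE in MRC5_Mo against H196_Mo, from 0.02 to -0.38 on log2(FPKM + 1), -0.41 on log2(FPKM + 0.1) and -0.013 with at least 10 counts in every library, and with a library left out it ran from -0.018 to 0.081. Only near 0, and with no call either way, it turned for NFKB2 in MRC5_CoH196 against MRC5_Mo (-0.070 and -0.074 on the FPKM scales), for NFKBIZ in H196 (-0.0092 and -0.013; libraries left out, -0.041 to 0.14), and with H69 for REL (-0.00090 with size factors by relative log expression, -0.0011 by DESeq2, -0.0093 and -0.012 on the FPKM scales; libraries left out, -0.044 to 0.069) and RELA (-0.0050 and -0.0051; -0.030 to 0.058). Leaving out a library, NFKBIA in MRC5_CoH196 against MRC5_Mo ran from -0.083 to 0.019 and NFKB2 in MRC5_CoH196 against MRC5_CoH69 from -0.066 to 0.034. The cause was not tested. RELB in MRC5_Mo against H196_Mo passed (-0.17, adjusted p = 0.0424, edgeR) without H196_Mo replicate 1. The number of members highest in MRC5_CoH196 was 3 by FPKM and by scaled CPM. Over all genes the FPKM scale changed the split of calls in H196 from 1542 higher and 996 lower to 930 and 1627, and in MRC5_Mo against H196_Mo from 5781 and 5979 to 3985 and 8005. Between MRC5_CoH196 and MRC5_CoH69 it went from 4574 and 4695 to 3104 and 6214, and for the difference between the lines from 3275 and 3683 to 2731 and 4421. With H69 the 484 higher and 375 lower genes became 242 and 143 in 1 fit of all 15 libraries.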
